A study of Mus musculus with 6 samples.

Results

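The genes described here are 34 genes that mark astrocytes, measured in microglia that the authors had selected from mouse brain after acute ischemic stroke (AIS). They were taken as a list of gene symbols and found on the array through the transcript accession of each probe. All 34 had a probe, out of 23462 genes that could be named on the array, and 51 probes carried their names. Astrocytes are the star-shaped glial cells that take up glutamate and potassium released by neurons, pass water and ions through channels at their endfeet on blood vessels, and join each other through gap junctions. After stroke they react by building intermediate filaments and changing their secreted proteins, and their genes are used as markers because most other brain cells, microglia included, express them weakly. Some of the genes are not particular to astrocytes. The metallothioneins Mt1 and Mt2, the chaperone clusterin (Clu) and glutamine synthetase (Glul) are made by several cell types, and Sox9 is also found in ependymal cells.

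Microglia were isolated from mPGC-1α mice and from their PGC-1α f/f littermates, here called controls, with 3 arrays in each group and 1 sample on each array. All mice had a C57BL/6 background. Controls carried a loxP-flanked PGC-1α construct linked to eGFP and no Cre, while mPGC-1α mice also carried a tamoxifen-inducible Cre driven by the Cx3cr1 promoter, which is active in microglia and in other mononuclear phagocytes. Mice of both groups had AIS, made in the study by a transient occlusion of the middle cerebral artery after tamoxifen, and the labels give all of them as male and 10 weeks old. The cells were released from brain tissue, passed through a strainer, cleared on Percoll and bound to beads through the microglial receptor P2RY12. The sources used here do not say how long after stroke the arrayed cells were taken, nor whether a sample is 1 mouse or a pool, so the p-values below measure only the spread between these samples. Values are log2 levels, that is, log2 of a probe's processed signal relative to the 75th percentile of the array's signals, so that a level of 0 is the signal at that percentile, and differences are mPGC-1α minus control. Levels of different genes come from different probes and were not set against each other. Means and sums over a list of genes, given below, compare arrays and not genes. Since the RNA is a bulk extract, a difference in the number of astrocytes among the selected cells and a difference in astrocyte RNA per cell cannot be told apart. The values also do not show which cells the RNA came from.

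The labels were checked first. Ppargc1a, the gene for PGC-1α, had levels of -1.05, -0.55 and -0.53 on the controls (arrays 1, 2 and 3, here and below in this order) and -1.08, -0.86 and -1.12 on the mPGC-1α arrays, so it was not higher in the arrays labelled mPGC-1α (difference -0.31, SE 0.24, adjusted p = 0.798 by limma, a linear model fitted to all probes). A second Ppargc1a probe gave -0.41. The paper reports higher PGC-1α in mPGC-1α microglia by qRT-PCR and staining of other samples. Whether these probes read the transcript of the construct was not tested. Cx3cr1, the gene whose promoter drives Cre, was lower on all 3 mPGC-1α arrays (2.36 to 3.13) than on the controls (3.66 to 4.19), with a limma adjusted p of 0.684. The strain name in the paper places this Cre in a targeted allele of Cx3cr1 itself. Whether that allele lowers Cx3cr1 RNA was not tested. Xist, the RNA of the inactive X chromosome, had levels from -0.57 to -0.11 on 5 arrays and -4.83 on control array 2, and the Y-linked Ddx3y was well above background on control array 2 alone, although every sample is labelled male. Control array 2 therefore stands apart, as the only array whose Xist and Ddx3y values go with the male label, while those of the other 5 arrays do not. The reason was not tested, and counts are also given without control array 2. Microglial genes had a mean level between 3.97 and 4.28 on all 6 arrays, and the probe for P2ry12, the gene of the receptor used for the selection, was marked as an outlier on 3 arrays and was not tested. Of the spots, 71.0% to 86.5% were well above background, and arrays with the number 3 lay on a second slide, with 3010 and 4931 marked spots against 549 to 1094 on the first.

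The astrocyte genes were mostly higher in the mPGC-1α arrays. Of the 33 that could be tested, 31 had a positive difference and 2 a negative one (Clu and Ntrk2), while 64% of all named genes had a positive difference. Each gene is given here by its brightest tested probe, and of the 12 genes with several tested probes 6 had probes of opposite sign (Gja1, Gjb6, Glul, Atp1b2, Ntrk2 and Htra1). Their median difference was 0.76, beside 0.11 over the 18222 named genes tested, and 9 of them differed by at least 1, that is 2-fold, against 1.13% of named genes. Of the 32 with a value on every array, 17 were higher on all 3 mPGC-1α arrays than on all 3 controls, against 8.48% of named genes, and none were lower on all 3, against 3.45%. This count was 10 when the percentile was taken over unmarked spots alone. None of the 33 passed the adjustment over all 40745 tested probes, where limma called 0% (smallest adjusted p of an astrocyte gene 0.684, and 0.125 with the replicate number as a block). An unadjusted p below 0.05 was found for 18 of them, all higher. Over all tested probes 7.17% had such a p, and of named genes 3.41% were higher and 2.68% lower with it. With 3 arrays in each group, an exact permutation test of a single gene cannot go below p = 0.1. Without control array 2 the median was 0.74 and 21 of 32 groups did not overlap, but then 42.1% of named genes did not overlap either.

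**Figure D1:**
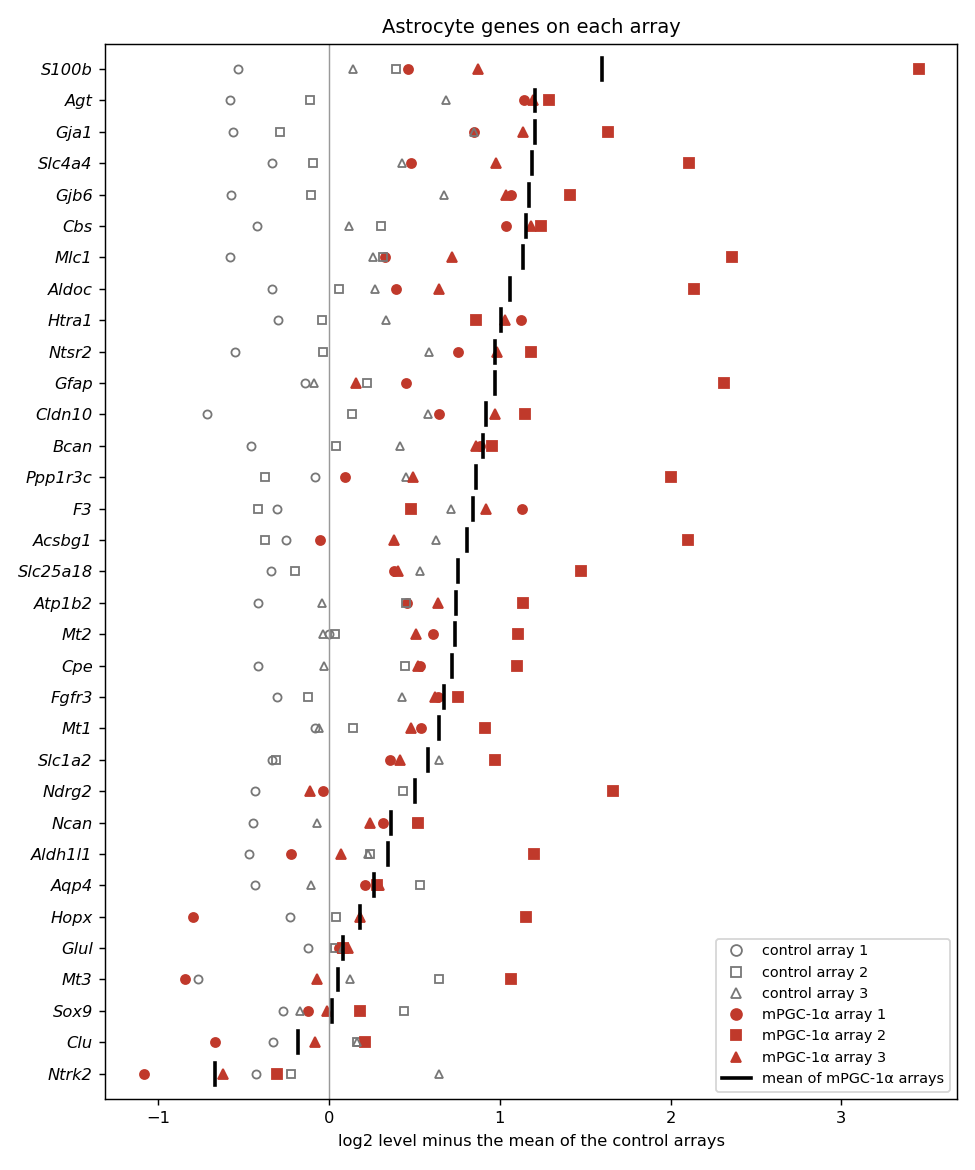
Log2 level of each of the 33 tested astrocyte genes on each array, minus the mean of its control arrays (horizontal axis), with genes ordered by difference. Open grey symbols are control arrays, filled red symbols mPGC-1α arrays, circle, square and triangle stand for arrays 1, 2 and 3, and the black bar is the mean of the mPGC-1α arrays; most bars lie above 0, and the square of mPGC-1α array 2 lies far to the right for S100b, Mlc1, Gfap, Aldoc and several others.

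The plot of all astrocyte genes by array shows that their differences were made up in more than one way. In 8 of the 17 genes without overlap, the 3 mPGC-1α arrays lay within 0.5 of each other and above every control, as in Htra1, Cbs, Agt and Bcan. The share of named genes grouped in this way was not computed, so this count has nothing to be set against. In 7 genes, mPGC-1α array 2 exceeded each of the other 5 arrays by at least 1, which held for 0.698% of named genes. These were S100b, Gfap, Mlc1, Ppp1r3c, Aldoc, Acsbg1 and Slc4a4. Of these, Ppp1r3c was dim and well above background on only 2 of the 3 mPGC-1α arrays. Array 2 was the highest of the 6 for 26 of 32 astrocyte genes, against 16% of named genes. Control array 1 was the lowest for 24 of the 32, and for 33.7% of named genes. These patterns were noticed in the values and carry no test. Without mPGC-1α array 2 the median difference was 0.52, the lowest of all ways of leaving out an array, and the highest was 0.93 without control array 3. Without mPGC-1α array 2, 18 of 33 genes were higher without overlap and 1 lower, beside 19.1% of named genes without overlap.

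Among the genes used to identify astrocytes, Gfap, the filament protein of reactive astrocytes, had levels of -2.15, -1.79 and -2.10 in the controls and -1.56, 0.30 and -1.86 in the mPGC-1α arrays. The groups overlapped, and mPGC-1α array 2 alone was 1.87 above the next highest array. The difference of 0.97 (SE 0.50, limma adjusted p = 0.719) became 0.30 without that array. S100b, a calcium-binding protein of astrocytes, showed levels of 0.17, 1.10 and 0.85 in the controls and of 1.17, 4.16 and 1.58 in the mPGC-1α arrays. Its groups did not overlap, but array 1 of the mPGC-1α group was close to control array 2, and array 2 was again far above the rest. This was the largest difference of the 33 genes, 1.60 (SE 0.66, 3.03-fold, limma adjusted p = 0.687).

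Aldoc, the aldolase of brain glycolysis, had control levels of 2.27, 2.66 and 2.87 and mPGC-1α levels of 2.99, 4.74 and 3.24, which did not overlap, with a difference of 1.06 (SE 0.41). Its second probe gave 1.14, with mPGC-1α array 2 again the highest. Aldh1l1, a folate enzyme widely used as an astrocyte marker, had levels of 0.16, 0.87 and 0.86 in controls and 0.41, 1.83 and 0.70 in mPGC-1α arrays. Here mPGC-1α arrays 1 and 3 lay inside the control range and array 2 above it, and the difference was 0.35 (SE 0.37, limma adjusted p = 0.853). Without array 2 it was -0.08. The transcription factor Sox9 had the smallest difference of all, 0.02 (SE 0.24), with control levels of 0.55, 1.26 and 0.65 and mPGC-1α levels of 0.69, 1.00 and 0.81. Every mPGC-1α array of Sox9 lay within the range of the controls, its second probe gave 0.26, and the sign of the first turned to -0.01 after quantile normalization. Hopx, a homeodomain protein of astrocytes and neural stem cells, ranged from 0.96 to 1.36 in controls and from 0.39 to 2.33 in mPGC-1α arrays, where array 1 was the lowest and array 2 the highest of all 6.

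All 7 genes for water, ion and gap-junction transport were higher in the mPGC-1α arrays, 6 of them without overlap (8.48% of named genes), with a median difference of 1.14. Gja1, which encodes the main connexin of astrocyte gap junctions, had control levels of -2.13, -1.85 and -0.72 and mPGC-1α levels of -0.71, 0.07 and -0.43. Control array 3 and mPGC-1α array 1 were nearly equal, and the other arrays lay apart by group (difference 1.21, SE 0.38, limma adjusted p = 0.684). A dimmer Gja1 probe was near -4.11, -4.06 and -4.12 in controls and -4.05, -4.03 and -4.31 in mPGC-1α arrays, a difference of -0.03, so the probes of this gene did not give the same result. Another Gja1 probe was not tested, because it was well above background on 2 of the 3 controls and on no mPGC-1α array. It had -3.76, -6.95 and -3.00 in controls and -7.74, -6.43 and -7.11 in mPGC-1α arrays, with control array 2 among the low values, and was at least 2.59-fold lower in the mPGC-1α arrays, measured against the lowest signal well above background. Gjb6 encodes another connexin of astrocytes and had levels of -0.68, -0.21 and 0.57 in controls against 0.96, 1.31 and 0.93 in mPGC-1α arrays. Each mPGC-1α array was above each control, and they differed by 1.17 (SE 0.31, limma adjusted p = 0.684). Its dimmer probe went the other way, with -1.74, -3.28 and -0.58 in controls, -2.72, -2.85 and -2.91 in mPGC-1α arrays and a difference of -0.96 (SE 0.57).

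Slc4a4, the sodium bicarbonate cotransporter, had control levels of 0.48, 0.72 and 1.24 and mPGC-1α levels of 1.29, 2.92 and 1.79. The highest control and the lowest mPGC-1α array were close, array 2 stood well above, and the difference was 1.19 (SE 0.39, limma adjusted p = 0.684), with 0.45 on the second probe. Mlc1, a membrane protein of astrocyte endfeet, had levels of -1.43, -0.54 and -0.59 in controls and -0.52, 1.51 and -0.13 in mPGC-1α arrays. Its groups were separated by a narrow gap except for array 2, which was 1.64 above every other array (difference 1.14, SE 0.49). Atp1b2, a subunit of the sodium pump, had control levels of 1.68, 2.54 and 2.05 and mPGC-1α levels of 2.55, 3.23 and 2.73 on its brighter probe. Control array 2 and mPGC-1α array 1 were all but equal, and the difference was 0.75 (SE 0.27). On its dimmer probe the levels were 0.00, -2.18 and -1.05 in controls and -2.44, -1.97 and -2.15 in mPGC-1α arrays, a difference of -1.11 (SE 0.48). The direction for Atp1b2 thus depended on the probe, and the mean of its probes gave -0.18. Cldn10, a claudin of astrocytes and other cells, ranged from -0.50 to 0.79 in controls and from 0.85 to 1.36 in mPGC-1α arrays, a difference of 0.92.

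Aqp4, the water channel of the endfeet, differed less. Its brightest probe had control levels of -0.79, 0.18 and -0.46 and mPGC-1α levels of -0.14, -0.07 and -0.06. The mPGC-1α arrays were almost identical and lay inside the control range, and the difference of 0.26 (SE 0.27, limma adjusted p = 0.849) was smaller than the SD of the controls, 0.49. The other tested Aqp4 probes gave 0.45 and 0.20.

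For glutamate handling, Slc1a2, the main glutamate transporter of forebrain astrocytes, had control levels of -1.73, -1.71 and -0.75 and mPGC-1α levels of -1.04, -0.43 and -0.98. Control array 3 was higher than mPGC-1α arrays 1 and 3, so the groups overlapped, with a difference of 0.58 (SE 0.33, limma adjusted p = 0.741). Slc1a3, the other glial glutamate transporter, was not tested because its probe was marked as an outlier on mPGC-1α arrays 2 and 3. With the marked spots kept, its levels were 2.43, 2.48 and 2.38 in controls and 2.50, 3.38 and 2.95 in mPGC-1α arrays, a difference of 0.51. Glul, which turns glutamate into glutamine, was nearly flat, with 4.05, 4.21 and 4.25 in controls and 4.23, 4.25 and 4.28 in mPGC-1α arrays. mPGC-1α array 1 lay inside the control range and array 2 at its upper edge, the groups were 0.09 apart (SE 0.16), the other Glul probes gave -0.10 and 0.27, and the sign turned under quantile normalization. Slc25a18, a mitochondrial glutamate carrier, ranged from -1.33 to -0.46 in controls and from -0.61 to 0.49 in mPGC-1α arrays, with array 2 the highest.

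The 3 receptors did not move together. Ntsr2, a neurotensin receptor found mainly on astrocytes, had control levels of 1.27, 1.79 and 2.40 and mPGC-1α levels of 2.58, 3.01 and 2.80, with no overlap and a difference of 0.97 (SE 0.29, limma adjusted p = 0.684). Fgfr3, a fibroblast growth factor receptor of astrocytes, was also higher on each mPGC-1α array (0.71 to 0.85) than on any control (-0.21 to 0.52), while its second probe gave 0.01. Ntrk2, the receptor for brain-derived neurotrophic factor, whose truncated form is the one made by astrocytes, had levels of 1.85, 2.06 and 2.92 in controls and 1.20, 1.98 and 1.65 in mPGC-1α arrays on its brighter probe. This was the most negative difference of the 33 genes, -0.67 (SE 0.31, limma adjusted p = 0.707), although mPGC-1α array 2 lay within the control range. On the dimmer Ntrk2 probe the levels were -3.64, -3.08 and -2.95 in controls and -2.67, -2.13 and -2.91 in mPGC-1α arrays, a difference of 0.65, so the sign for Ntrk2 also depended on the probe.

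Metallothioneins are small cysteine-rich proteins that bind zinc and copper, and their genes are switched on by metals, through metal response elements, and by glucocorticoids and other stress signals. Mt1 had levels of 4.06, 4.28 and 4.08 in controls against 4.68, 5.05 and 4.62 in mPGC-1α arrays. The groups were well separated, with a difference of 0.64 (SE 0.18, 1.56-fold, limma adjusted p = 0.684). For Mt2 the control levels were 3.91, 3.95 and 3.88, nearly the same on all 3 arrays, and the mPGC-1α levels 4.52, 5.02 and 4.42. These groups were also apart, by 0.74 on average (SE 0.20, 1.67-fold, limma adjusted p = 0.684). Mt3, the form made mostly in brain by neurons and astrocytes, had control levels of 1.08, 2.48 and 1.96 and mPGC-1α levels of 1.00, 2.91 and 1.77. Its groups covered much the same range, array 1 being low and array 2 high in both, and the difference was 0.05 (SE 0.48), turning to -0.46 without mPGC-1α array 2.

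Mt3, Mt2 and Mt1 lie in this order next to each other on mouse chromosome 8, with a long noncoding RNA gene between Mt3 and Mt2. Their promoters are shown because Mt1 and Mt2 were higher on every mPGC-1α array and their neighbour Mt3 differed by 0.05. Each window is the RefSeq sequence of 300 bases around the start of transcription on the plus strand of GRCm38.p6, at chr8:94178839-94179138 for Mt1, chr8:94172368-94172667 for Mt2 and chr8:94152357-94152656 for Mt3. Capitals mark the letters TGCACNC or TGCGCNC, the core of the metal response element, on either strand, where N is any base.
Mt1: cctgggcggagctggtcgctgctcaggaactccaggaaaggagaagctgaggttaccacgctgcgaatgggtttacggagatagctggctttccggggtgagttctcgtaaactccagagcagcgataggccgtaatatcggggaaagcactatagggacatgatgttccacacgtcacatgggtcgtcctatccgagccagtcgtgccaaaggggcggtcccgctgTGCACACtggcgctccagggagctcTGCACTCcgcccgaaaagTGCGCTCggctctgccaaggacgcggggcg
Mt2: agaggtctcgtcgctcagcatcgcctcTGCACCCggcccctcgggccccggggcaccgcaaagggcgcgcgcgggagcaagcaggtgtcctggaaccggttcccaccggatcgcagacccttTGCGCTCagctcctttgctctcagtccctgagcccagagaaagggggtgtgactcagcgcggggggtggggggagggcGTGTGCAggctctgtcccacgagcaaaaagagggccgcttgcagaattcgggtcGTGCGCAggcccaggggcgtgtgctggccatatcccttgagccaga
Mt3: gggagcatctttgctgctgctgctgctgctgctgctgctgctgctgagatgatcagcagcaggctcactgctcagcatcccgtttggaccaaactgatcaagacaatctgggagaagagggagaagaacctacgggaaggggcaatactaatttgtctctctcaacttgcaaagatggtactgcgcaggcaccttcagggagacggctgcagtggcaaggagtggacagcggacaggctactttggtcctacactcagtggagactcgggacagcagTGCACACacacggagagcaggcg
The Mt1 window held 3 matches, the Mt2 window 4 and the Mt3 window 1. At least 1 match was present in 25.7% of the 32817 promoter windows in the table, at least 3 in 1.97% and at least 4 in 0.518%. A match is only a run of letters and was not tested as a binding site. The table held windows for 29 of the 34 genes (36 windows), without Aqp4, Sox9, Atp1b2, Clu and Cpe. Of these 36 windows, 27.8% held the metal response core, close to the share of all windows. The letters TTCNNNGAA, bound by STAT factors, were in 6 of them (16.7%, against 8.29% of all windows), and the full inverted-repeat motif of nuclear factor I in 0 (against 0.808%). These motifs read the same on either strand apart from the N positions.

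**Figure D2:**
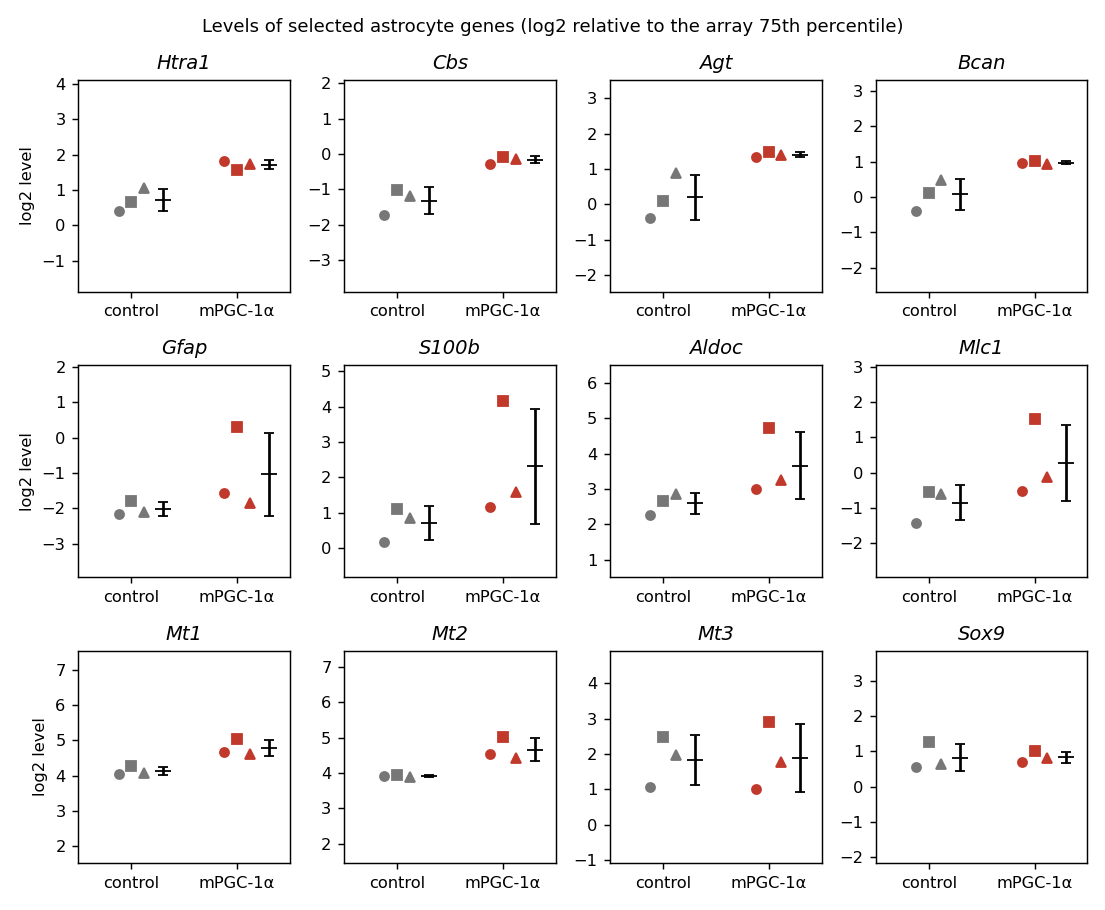
Log2 levels of 12 astrocyte genes on control (grey) and mPGC-1α (red) arrays, with circle, square and triangle for arrays 1, 2 and 3 and the mean ± SD of each group (n = 3) in black; every panel spans the same number of log2 units. The upper row shows genes with closely grouped mPGC-1α arrays, the middle row genes in which mPGC-1α array 2 stands above the others, and the lower row Mt1 and Mt2, which lie apart by group, beside Mt3 and Sox9, which overlap.

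Of the 7 genes for secreted proteins, matrix and their processing, 6 were higher and Clu was lower, and 4 were higher without overlap (8.48% of named genes). Agt, the precursor of angiotensin, made in brain mainly by astrocytes, had control levels of -0.37, 0.09 and 0.89 and mPGC-1α levels of 1.34, 1.49 and 1.40. The mPGC-1α arrays were tightly grouped above the spread-out controls, and the difference was 1.21 (SE 0.31, 2.31-fold, limma adjusted p = 0.684). Htra1, a secreted serine protease, had levels of 0.41, 0.67 and 1.05 in controls and 1.84, 1.58 and 1.74 in mPGC-1α arrays. Here array 2 was the lowest of the 3 mPGC-1α arrays and still above each control (difference 1.01, SE 0.22, limma adjusted p = 0.684). A dimmer Htra1 probe, without a value on control array 3, had 0.26 and -2.74 on the other controls and -1.20, -1.87 and -1.48 in mPGC-1α arrays, a difference of -0.28 (SE 0.74), so the spread of its controls was larger than any difference.

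Brevican (Bcan), a proteoglycan of the brain's matrix, was -0.39, 0.11 and 0.49 in controls and 0.96, 1.03 and 0.93 in mPGC-1α arrays, a difference of 0.90 (SE 0.25), and its second probe gave 0.90. Neurocan (Ncan), a related proteoglycan, ranged from -3.09 to -2.13 in controls and from -2.41 to -2.13 in mPGC-1α arrays. The groups overlapped for Ncan and did not for Bcan. Carboxypeptidase E (Cpe), which trims peptide hormones, was higher on each mPGC-1α array (3.81 to 4.39) than on any control (2.88 to 3.74). For tissue factor (F3), which starts clotting, mPGC-1α array 2 was the lowest of its group, at 0.72, below control array 3 at 0.96. Clu was among the 4 smallest differences, with 4.07, 4.57 and 4.57 in controls and 3.73, 4.61 and 4.32 in mPGC-1α arrays. It overlapped fully, with a difference of -0.18 (SE 0.25).

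Among the metabolic genes, Cbs, which makes cystathionine from homocysteine, had control levels of -1.74, -1.01 and -1.20 and mPGC-1α levels of -0.28, -0.08 and -0.13. The gap between the groups was wide and close to the same on both slides (1.20 on the first and 1.07 on the second), and the difference was 1.15 (SE 0.26, 2.23-fold, limma adjusted p = 0.684). It was the astrocyte gene that passed the adjustment once control array 2 was left out (1.31, limma adjusted p = 0.0158), a setting in which 2102 probes over the whole array passed. Acsbg1, an acyl-CoA synthetase, and Ppp1r3c, which targets a phosphatase to glycogen, overlapped between the groups apart from mPGC-1α array 2, which was 1.48 and 1.51 above every other array. Ppp1r3c was dim, from -5.93 to -5.11 in controls, so its excess was measured against values near background. Ndrg2, an astrocyte marker whose probe was marked on control array 3, had 2.39 and 3.26 on the other controls and 2.80, 4.49 and 2.72 in mPGC-1α arrays, so that array 2 alone was above the controls.

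The arrays of both groups were spread over the 2 slides in the same way. On the first slide, with 2 arrays of each group, the median difference of the astrocyte genes was 1.13, and on the second, with 1 of each, it was 0.34, while the medians over all named genes were 0.09 and 0.12. A positive difference within each slide was found for 24 of 32 genes. The share of all named genes was not computed for this count or for the count over every pair below, and 64% of named genes had a positive difference between the groups. Arrays with the same number deviated from their group means together, so differences were also taken in pairs by number. The SE and p values given above for single genes come from the fit without pairs unless stated. The median was 0.72 in pair 1, 1.01 in pair 2 and 0.34 in pair 3, and 22 genes were higher in the mPGC-1α array of every pair. With the pairs as a block limma called 1 probe on the whole array (0.00245%), lower in mPGC-1α and not an astrocyte gene, and no astrocyte gene passed. The same fit with the percentile taken over unmarked spots alone called 1720 of the 40745 tested probes and 18 astrocyte genes, the latter all higher. The share of named genes called in that fit was not computed. The calls under pairing thus depended on this step of the scaling.

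**Figure D3:**
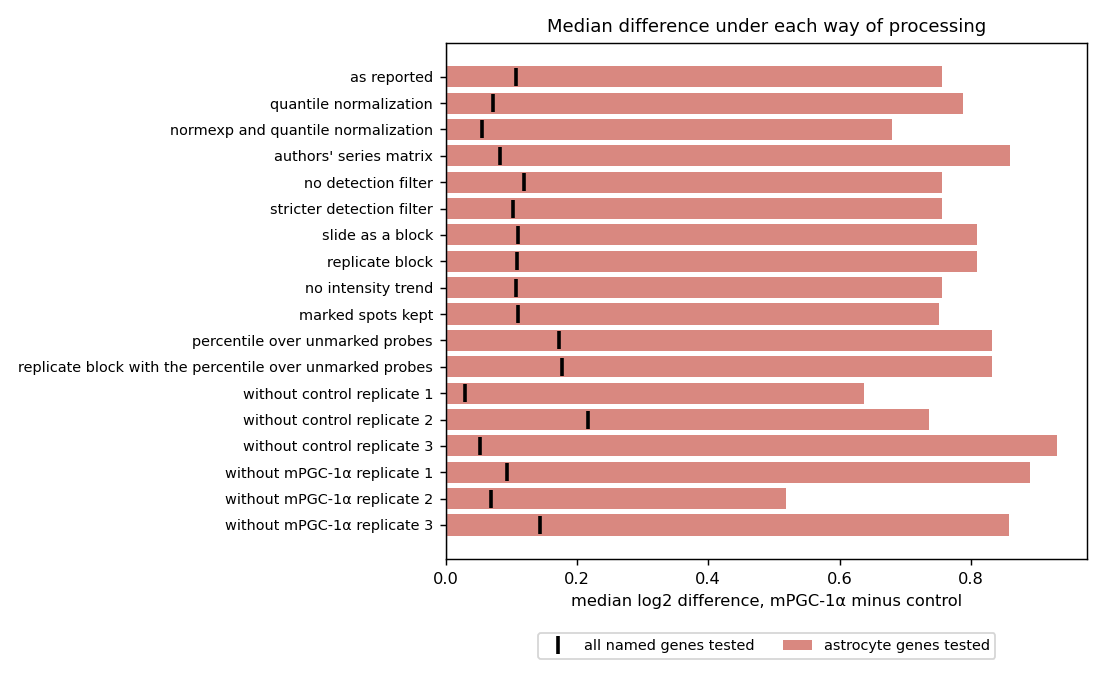
Median log2 difference, mPGC-1α minus control, over the tested astrocyte genes (bars) and over all named genes tested (black ticks) under each way of processing the arrays and with each array left out. The bars run from 0.52 without mPGC-1α array 2 to 0.93 without control array 3 and exceed the median of all named genes in every setting shown.

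Genes of other cell types that the P2RY12 selection aims to leave out were measured beside the astrocyte genes. The mean level of the astrocyte genes was 0.23, 0.68 and 0.90 in controls and 0.95, 1.81 and 1.14 in mPGC-1α arrays, and their summed linear level, in multiples of each array's 75th percentile, was 105 to 140 in controls and 150 to 252 in mPGC-1α arrays. Such sums rest mostly on the brightest probes. The metallothioneins, not all particular to astrocytes, made up 33.8 to 40.4 of this sum in controls and 49.5 to 73.1 in mPGC-1α arrays. Genes of oligodendrocytes, the myelin-forming cells, were higher for 18 of 20, with a median difference of 0.74, a summed level of 10.6 to 19.9 in controls and 22.4 to 38.5 in mPGC-1α arrays, and mean levels of -1.80, -1.16 and -2.25 in controls and -0.25, -1.12 and -1.11 in mPGC-1α arrays. Their highest array was mPGC-1α array 1, and array 2 was the highest for 0 of 16 of them. Neuronal genes were higher for 19 of 20, with a median difference of 0.86 and mPGC-1α array 2 the highest for 11. Their summed level was 50.8 to 80.2 in controls and 79.0 to 95.4 in mPGC-1α arrays, most of it from Snap25. The groups overlapped for Snap25, with 5.22, 5.94 and 5.86 in controls, 6.10, 5.89 and 5.93 in mPGC-1α arrays and a difference of 0.30. The ependymal and choroid plexus list went the other way, with 1 of 11 genes higher, a median of -0.64 and a summed level of 29.1 to 54.9 in controls and 19.5 to 36.8 in mPGC-1α arrays. Endothelial and mural genes were higher for 9 of 13 (median 0.09), monocyte and macrophage genes for 3 of 15 (median -0.15), neutrophil genes for 4 of 8 (median 0.01) and microglial genes for 11 of 17 (median 0.17). For comparison with each list, 64% of all named genes were higher (median 0.11), close to the endothelial and microglial shares. All defining astrocyte, oligodendrocyte and neuronal genes tested were above background on some arrays. What part these cells had in the astrocyte values was not tested.

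**Figure D4:**
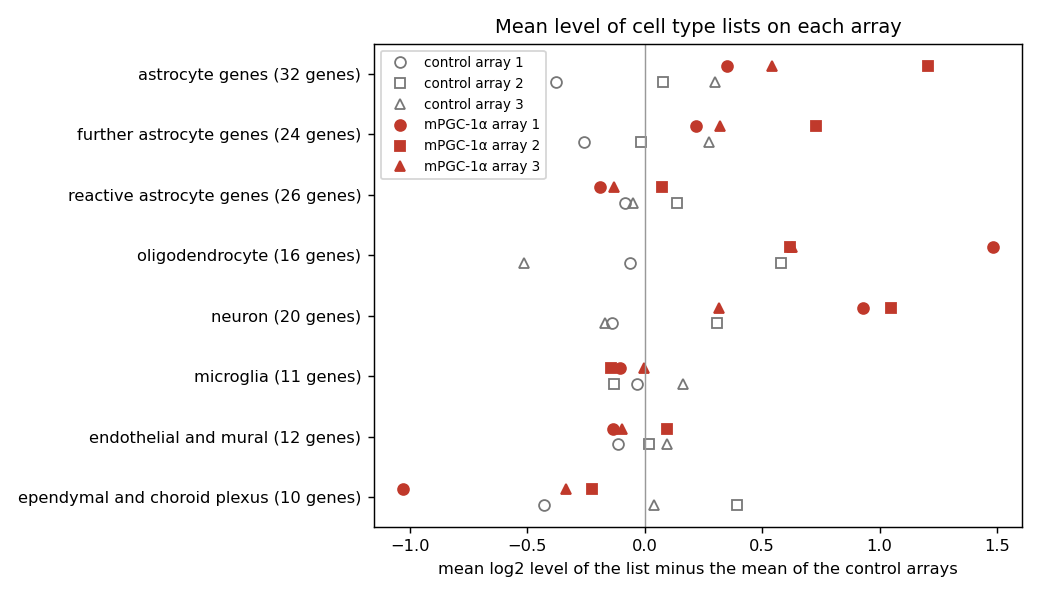
Mean log2 level of each cell type list on each array, minus the mean of the control arrays (horizontal axis); open grey symbols are controls, filled red symbols mPGC-1α arrays, and circle, square and triangle stand for arrays 1, 2 and 3. The astrocyte, oligodendrocyte and neuronal lists lie to the right on the mPGC-1α arrays, with a different array farthest to the right for the oligodendrocyte list, the microglia list stays near 0, and the ependymal and choroid plexus list lies to the left.

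Further astrocyte genes that are not among the 34 were taken from a second list of 28, of which 27 were tested. Of these, 19 were higher and 8 lower, 8 of the 24 with all values did not overlap, all higher, and the median difference was 0.44. Over all named genes, 64% were higher and 8.48% were higher without overlap. Etnppl, an enzyme that breaks down phosphoethanolamine, had control levels of -2.31, -1.78 and -1.82 and mPGC-1α levels of -0.65, 1.54 and -0.69, a difference of 2.03 (SE 0.54, limma adjusted p = 0.684), larger than that of S100b. Sparcl1, a secreted matrix protein, had 1.93, 2.59 and 2.66 in controls and 3.10, 4.48 and 3.27 in mPGC-1α arrays, a difference of 1.22 (SE 0.36). In both genes array 2 was the highest by more than 1, as in Gfap and S100b. Slc6a11, a transporter for the neurotransmitter GABA, had -2.20, -2.11 and -1.08 in controls and -0.98, -0.93 and -0.40 in mPGC-1α arrays, with array 3 the highest.

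Genes reported to rise in reactive astrocytes were split in direction. Of 35 listed and 33 tested, 18 were higher and 15 lower, the median difference was 0.03, and 2 of the 26 with all values did not overlap, both higher. These counts are near or below the shares of all named genes, 64% higher and 8.48% higher without overlap. Many of these genes are also made by microglia and other immune cells. Steap4, a metal reductase, had -3.81, -6.10 and -2.04 in controls and -7.96, -6.05 and -7.19 in mPGC-1α arrays. Only 1 of the 3 mPGC-1α arrays had it well above background, so its fitted difference of -3.08 (limma adjusted p = 0.684) rests in part on values at background, and control array 2 was close to mPGC-1α array 2. Osmr, the receptor subunit for oncostatin M, was higher on each mPGC-1α array (-3.47 to -2.85) than on any control (-5.23 to -3.50), with a difference of 1.25 (SE 0.45). It was well above background on only 2 of the 3 controls, and control array 2 and mPGC-1α array 2 were nearly equal. Gbp2, an interferon-induced GTPase, had 1.31, -2.08 and 1.88 in controls and -1.04, -0.70 and -0.62 in mPGC-1α arrays, so that control array 2 lay below all mPGC-1α arrays and the other controls above them.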

How the data were processed

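Total RNA of P2RY12-selected microglia was amplified, labelled and hybridised to Agilent mouse expression arrays of 1 colour, 1 array per sample and 3 per genotype, with groups and replicate numbers taken from the labels. The authors' deposited scanner output holds a linear intensity per spot from Agilent Feature Extraction 11.5.1.1, where the processed signal is background-subtracted and not yet normalized between arrays. The slide of each array was read from the names of this output and not from the labels. The authors' series matrix holds log2 values for 46731 probes, normalized between arrays so that its columns share 1 distribution, and was used as an alternative. The labels name Cy3 in one field and Cy5 in another, and the single channel of the files was used.

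Using R 4.3.3 and its data.table package, version 1.17.8, log2 of the processed signal minus the array's 75th percentile over all 56605 probes that are not controls was computed. Spots marked as outliers were then dropped and replicate spots averaged. To be tested, a probe needed at least 2 values in each group and, in at least 1 group, a signal well above background wherever it was unmarked. This gave 40745 probes, 3750 of them with a missing value. RefSeq names (GRCm38.p6) were matched by accession for 33767 of the 56605 probes, and a gene is given by its tested probe with the highest mean. Probe coordinates are left out because the array grid follows an older build. The test was limma's (version 3.58.1), with lmFit, eBayes using an intensity trend, a two-sided p and a threshold of 0.05 after Benjamini-Hochberg adjustment for every tested probe. The number of arrays limits the precision.

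The astrocyte genes and the other lists were chosen with earlier results of these data known, so no p is given for a list. Full values are given for Gfap, Aqp4, Slc1a2, Slc1a3, Gja1, Aldh1l1, Sox9, S100b, Mt1, Mt2 and Mt3, for the 8 largest and 4 smallest differences, and for genes whose other tested probe differs in sign. Some further genes are described with them. Of the other astrocyte lists, the 3 largest differences are named. Deviations from the group mean correlated at 0.247, 0.224 and 0.171 between arrays of the same number and at -0.337 to 0.035 between the others. Each same-number value was above 0.1, so pairing by number was also examined, although no label says what the numbers stand for. Deviations within a group cancel, so positive same-number values tend to make the others negative, and pair 3 alone lay on the second slide. The main fit held the group alone, without pairs. Each SE and p printed for a gene comes from it unless another setting is named. The alternatives were quantile normalization, normexp on the median intensity (offset 50) with quantile normalization, the series matrix, other detection filters, the slide or replicate number as a block, no intensity trend, marked spots kept, the mean of a gene's probes, and each array left out.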

Additional observations from a re-analysis of the deposited data

How the results depend on the processing

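Of the 33 tested astrocyte genes, 24 kept their sign under every alternative run. The sign turned under quantile normalization for Glul (-0.093), Mt3 (-0.031) and Sox9 (-0.014), with normexp for the same genes (-0.20, -0.0098 and -0.046), in the authors' series matrix likewise (-0.071, -0.028 and -0.0087), and with the mean of all probes for Atp1b2 (-0.18) and Htra1 (-0.017). When each array was left out in turn, Aldh1l1 ran from -0.077 to 0.63, Hopx from -0.30 to 0.67, Mt3 from -0.46 to 0.50 and Ndrg2 from -0.073 to 0.81, each turning without mPGC-1α array 2. Sox9 ran from -0.12 to 0.24, turning without that array, control array 1 or control array 3, and Mt3 also turned without control array 1. Clu ran from -0.37 to 0.066, turning without mPGC-1α array 1. Over such omissions the median difference ran from 0.52 to 0.93 and the genes without overlap from 18 to 23, while 15.4% to 42.1% of named genes did not overlap. With all arrays this share was 10.6%, counting a gene with a missing value as overlapping. Among named genes with a value on every array, 8.48% were higher and 3.45% lower without overlap. The probes called ran from 0 to 2102 and the astrocyte genes called from 0 to 1, both upper counts without control array 2. The replicate block gave 1 called probe and no astrocyte gene.

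Chosen after seeing the data, the percentile was also taken over unmarked spots alone. Marked spots were bright (median log2 signal 13.3 to 13.9, against 7.08 to 7.84 for all spots) and most frequent on the second slide, so this percentile rests on different probes on each array. It left 10 astrocyte genes without overlap in place of 17, beside 9.81% and 10.6% of named genes, where the 10.6% counts a gene with a missing value as overlapping. Together with the replicate block, 1720 probes passed (451 higher, 1269 lower in mPGC-1α) and 18 astrocyte genes, all higher, with adjusted p down to 1.54e-05 by limma, against 1 probe and 0 astrocyte genes with the block and the percentile over all probes. The share of named genes that passed was not computed. The calls under pairing thus depend on which spots enter the percentile. With 3 arrays per group, limma made no call over the whole array at an adjusted p under 0.05 where 2921 probes had an unadjusted p below it.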
